A study of Mus musculus with 24 samples.

Results

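In mouse hearts with different activity of phosphoinositide 3-kinase (PI3K), 91 genes stood highest where the labels give the least PI3K activity and lowest where they give the most. The 91 genes were chosen from 18193 genes with a probe set on the array. Each gene was read from its brightest probe set as log2(signal + 11.2), and 10741 genes had a mean of at least 7 on this scale over the 24 arrays. Among these, 104 genes, or 0.968%, had their lowest dnPI3K array above their highest caPI3K array. For 103 of the 104 the mean of the Ntg arrays also lay between the means of both transgenic lines, and 97 of the 103 were autosomal. The genes Dusp4, Pde1c, Tfpi, Pygl, Slc38a1 and Tmem100, which also met these conditions, were left out by name, as were the X-linked Bex1 and Tceal7. The genotype differences of the 91 genes are therefore a description and carry no test, because these values chose the genes.

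The groups were nontransgenic (Ntg) mice, dnPI3K mice with a dominant negative transgene and lower PI3K activity per the labels, and caPI3K mice with a constitutively active transgene and higher activity per the labels. All were of strain FVB/N, were operated on at 4 months of age, and gave whole hearts 8 weeks later. The operation either was a sham or caused a myocardial infarction (MI), which gives 6 groups of 4 arrays, with 8 arrays per genotype. The labels call the dnPI3K line cardiac-specific but do not name the promoter of either transgene, and they do not give the sex of the animals. Hearts were homogenized individually, but no label ties each array to an animal of its own, and the p-values then speak only of the spread among arrays of a group.

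PI3K is a lipid kinase that insulin and insulin-like growth factor 1 (IGF1) receptors switch on through insulin receptor substrate adaptors. Its lipid product recruits the kinase Akt, which favours growth and keeps FoxO transcription factors out of the nucleus. In the heart the pathway is known for the growth that accompanies postnatal development and exercise, and FoxO factors are known to raise genes of receptor signalling, autophagy and protein breakdown. No file used here measures PI3K activity, so the order of the genotypes rests on the labels.

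Every array had the same trimmed mean signal, and array pairs correlated at 0.911 to 0.964. The 14 cardiomyocyte markers gave a summed signal of 564547 to 798068 on the dnPI3K arrays, 572381 to 802300 on the Ntg arrays and 543280 to 648192 on the caPI3K arrays, and none of them had a mean of 0. The arrays caPI3K sham replicates 1, 2 and 3 stood apart, since the Y-linked gene Eif2s3y read 10.55 to 10.99 there and 3.71 to 5.71 on the other arrays. The caPI3K sham array without this signal lay below the 3 others for 40 of the 91 genes, above them for 10 and within their range for 41. In bulk RNA of a whole heart, a change in the number of cells of a type and a change in RNA per cell cannot be told apart.

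The mean dnPI3K level exceeded the mean caPI3K level by 0.13 log2 units at the least (Ngly1) and by 1.73 at the most (Slc16a7), with a median of 0.53. The difference was at least 1 log2 unit, or 2-fold, for 14 genes. The gap between the lowest dnPI3K array and the highest caPI3K array was at least 0.2 for 18 genes and under 0.1 for 56. Ntg hearts lay at a median of 42.7% of the way from caPI3K to dnPI3K, with quartiles of 31.7% and 52.9%. The Ntg mean was nearer caPI3K for 64 genes and nearer dnPI3K for 27. For 12 genes all 8 Ntg arrays lay below every dnPI3K array, for 2 genes (Acbd4 and Rora) all 8 lay above every caPI3K array, and for 77 genes neither held. Fam8a1 sat at one end of this range, with Ntg at 1.54% of the way, and Bola2 at the other, at 89.1%.

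**Figure D1:**
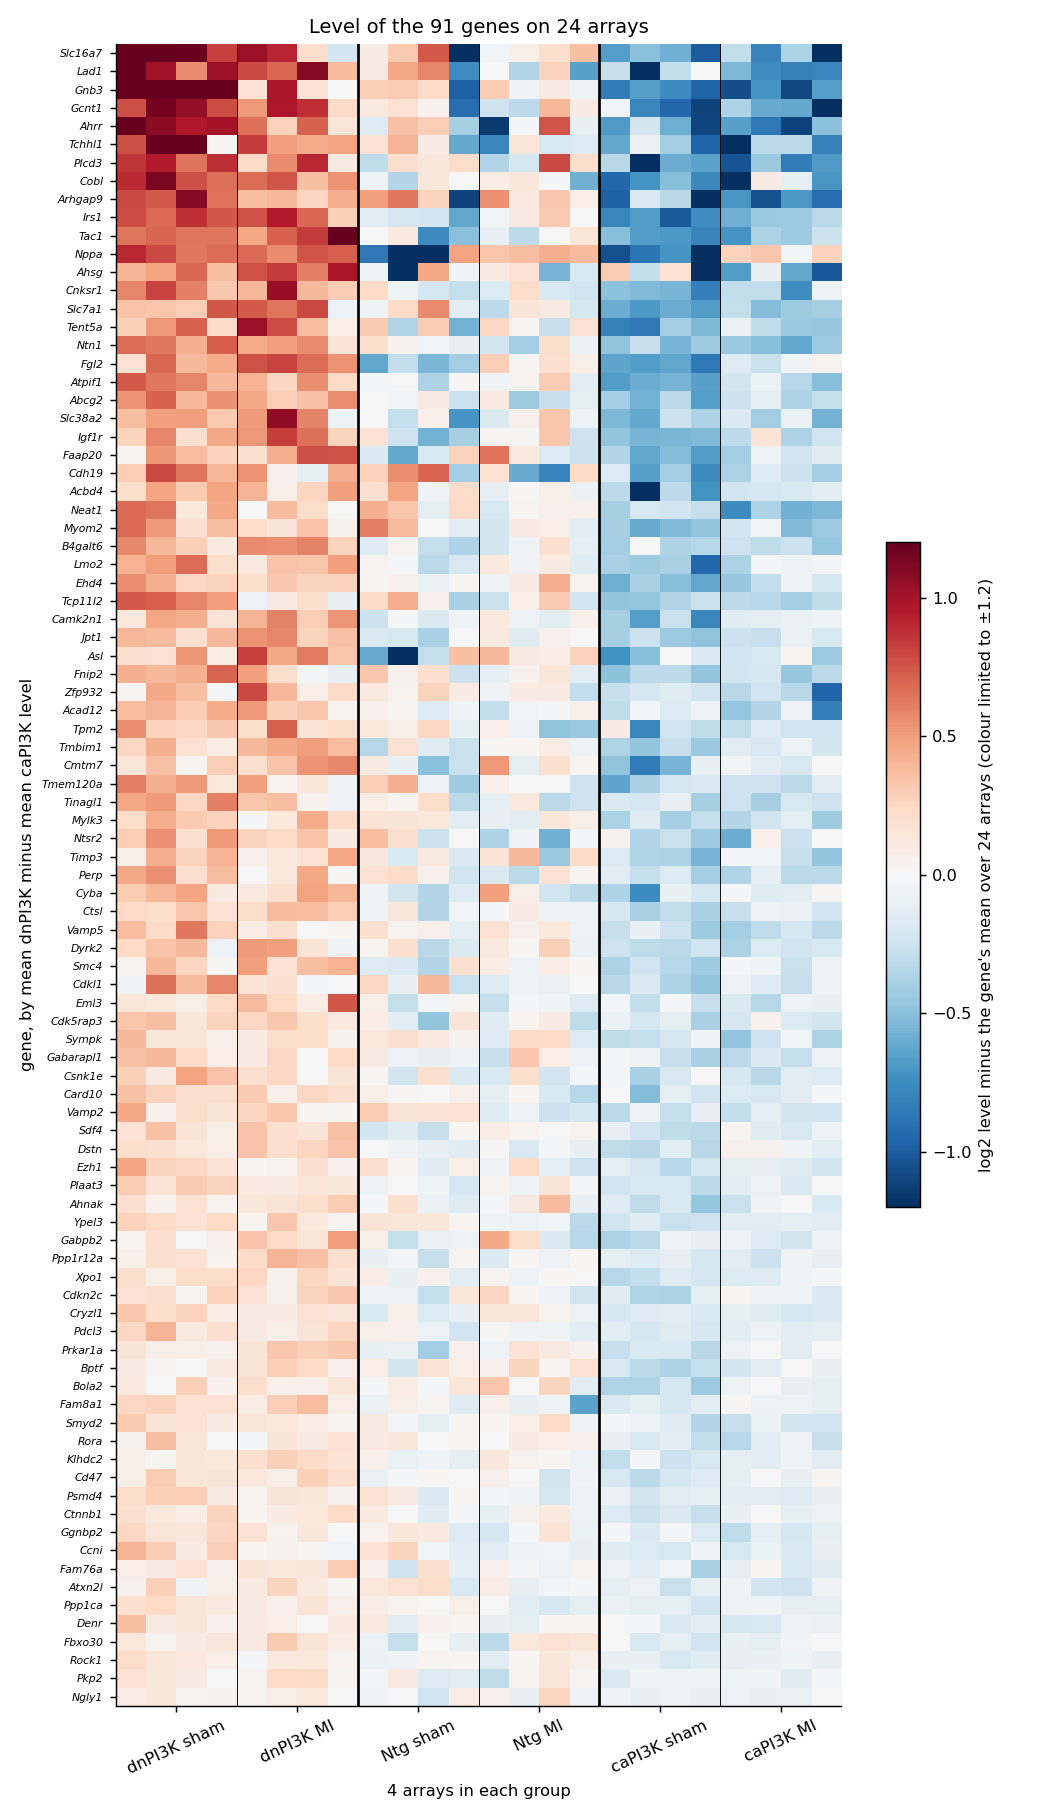
Level of each of the 91 genes (vertical axis, ordered by the mean dnPI3K minus the mean caPI3K level) on each of the 24 arrays (horizontal axis, 4 per group), as log2(signal + 11.2) minus the gene's own mean over all arrays. Red cells are above and blue cells below the gene's mean, with the colour limited at 1.2; dnPI3K columns are red and caPI3K columns blue by the choice of genes, and the Ntg columns vary between them.

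Insulin and growth factor signalling held 4 of the genes. Irs1 encodes the adaptor that links insulin and IGF1 receptors to PI3K. Its level was 11.65 to 12.32 (median 12.13) on the dnPI3K arrays, 10.74 to 11.68 (median 11.29) on the Ntg arrays and 10.37 to 11.04 (median 10.75) on the caPI3K arrays. The lowest dnPI3K array was thus 0.61 above the highest caPI3K array, the third widest gap among the 91, and the means differed by 1.35. Igf1r, the IGF1 receptor itself, read 9.95 to 10.58 (median 10.23) on the dnPI3K arrays, 9.18 to 10.08 (median 9.63) on the Ntg arrays and 9.19 to 9.90 (median 9.32) on the caPI3K arrays, so its gap was only 0.05 although the means differed by 0.83. Its 4 other probe sets were dimmer and overlapped between the genotypes, with dnPI3K higher by 0.11 to 0.96. The Ntg mean lay between both lines only on the brightest of the 4, at a mean of 8.27. On the rest it lay below the caPI3K mean. Ahsg encodes fetuin-A, a circulating glycoprotein known to inhibit the insulin receptor, and Fnip2 encodes a partner of folliculin in nutrient sensing. Their dnPI3K means were higher by 1.07 and 0.67. Ahsg was dim, and some of its caPI3K sham arrays read under 7, the lowest mean over all arrays that the choice allowed.

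The wider pathway did not move as a block. Of 38 measured genes of the PI3K pathway, 6 were higher in dnPI3K than in caPI3K hearts, sham and MI averaged, and 5 were lower (limma, Benjamini-Hochberg adjusted over 14753 genes), beside 13.1% of all genes called in either direction, 5.6% higher and 7.48% lower. The 6 include Irs1 and Igf1r, whose contrast the choice used. Irs2, the other main adaptor, was 6.27 to 8.49 (median 8.14) on the dnPI3K arrays and 4.78 to 6.33 (median 4.88) on the caPI3K arrays, a difference of 2.56 (SE 0.41, adjusted p = 7.30e-05). Those ranges overlap slightly, and its mean was under 7, so Irs2 is not among the 91 genes. Akt1 differed by 0.45 (SE 0.07, adjusted p = 2.86e-05) and just missed the choice, since its lowest dnPI3K array was below its highest caPI3K array by less than 0.01. The other genes higher in dnPI3K were Eif4ebp1, a brake on translation that mTOR relieves, at 0.41 (SE 0.07, adjusted p = 2.15e-04), and the Akt phosphatase Phlpp2, at 0.73 (SE 0.23, adjusted p = 0.0308). Lower in dnPI3K were the receptor-binding adaptors Grb14, at -0.88 (SE 0.07, adjusted p = 3.79e-10), and Grb10, at -0.37 (SE 0.06, adjusted p = 4.53e-05). So too were the regulatory subunit Pik3r3 (-0.45), the lipid phosphatase Inppl1 (-0.28) and Mtor (-0.24). Without Irs1 and Igf1r, 4 of 36 were higher and 5 lower, and the median was 0.0039, beside 0.0054 over all genes tested.

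**Figure D2:**
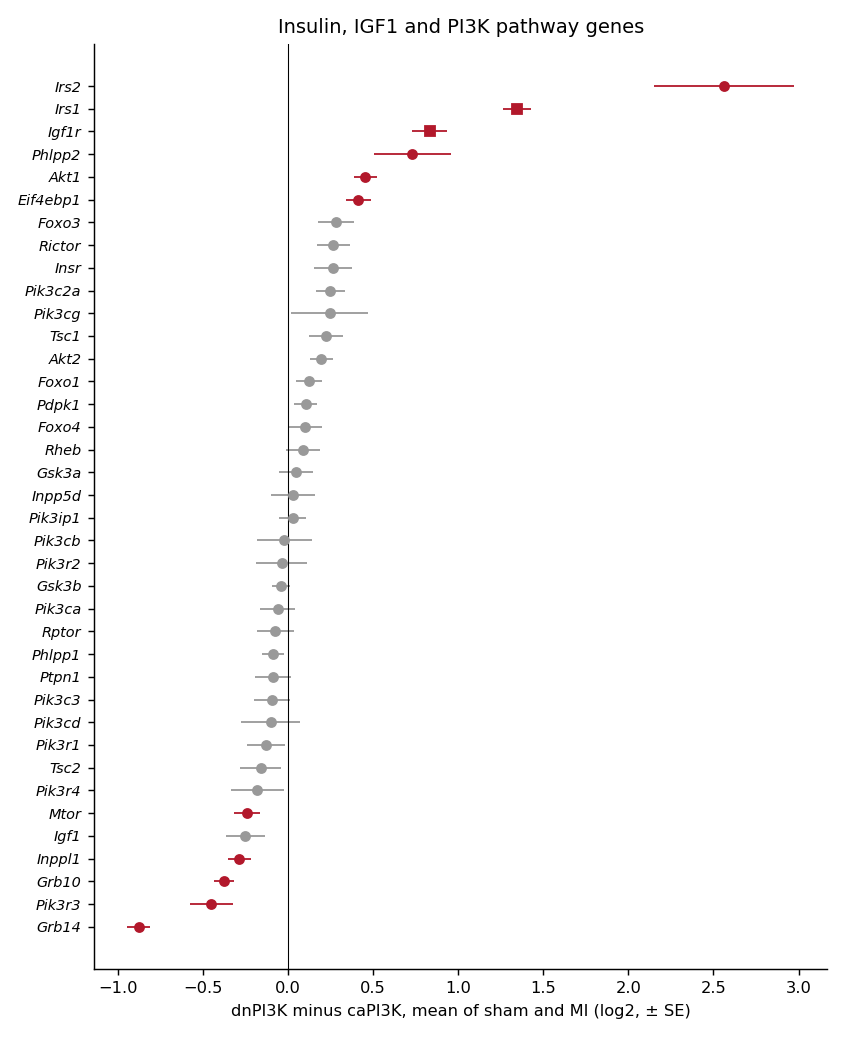
Difference between dnPI3K and caPI3K hearts, averaged over sham and MI, in log2 units with its standard error (horizontal axis) for the 38 measured PI3K pathway genes (vertical axis). Red marks adjusted p below 0.05, grey the rest, and squares the genes Irs1 and Igf1r, which were chosen on this contrast; the called genes lie at both ends, from Grb14 at -0.88 to Irs2 at 2.56.

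Protein breakdown and autophagy were represented by 6 genes, of which 2 stood on the list of FoxO targets. Gabarapl1, an autophagosome protein, read 12.32 to 12.71 (median 12.56) on the dnPI3K arrays, 12.04 to 12.64 (median 12.26) on the Ntg arrays and 11.93 to 12.29 (median 12.09) on the caPI3K arrays. Fbxo30, a ubiquitin ligase subunit of muscle, read 9.89 to 10.17 (median 9.97) on the dnPI3K arrays, 9.53 to 10.02 (median 9.82) on the Ntg arrays and 9.62 to 9.85 (median 9.75) on the caPI3K arrays. The dnPI3K means exceeded the caPI3K means by 0.41 and 0.23. Of the 25 other measured FoxO targets, 4 were higher and 2 lower in dnPI3K than in caPI3K hearts, beside 5.6% and 7.48% of all genes, and their median was 0.036, beside 0.0054 over all genes. The 4 higher ones were Irs2, Eif4ebp1, Klf4 (0.41 (SE 0.13, adjusted p = 0.0396)) and Klf15 (0.38 (SE 0.13, adjusted p = 0.0487)), the last a regulator of amino acid and fat metabolism. The 2 lower ones were the hydrogen peroxide scavenger catalase, Cat, at -0.46 (SE 0.06, adjusted p = 5.22e-06), and Cited2, at -0.33 (SE 0.10, adjusted p = 0.0328). The 4 remaining breakdown genes were the lysosomal protease Ctsl, the proteasome subunit Psmd4, the ubiquitin ligase subunit Klhdc2 and the deglycosylase Ngly1, with differences of 0.52, 0.29, 0.31 and 0.13. Ctsl had the widest gap of the 6, with 13.17 to 13.37 (median 13.26) on the dnPI3K arrays, 12.64 to 13.13 (median 12.96) on the Ntg arrays and 12.60 to 12.94 (median 12.73) on the caPI3K arrays.

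Membrane transporters held 4 genes with large differences. Slc16a7 encodes a monocarboxylate transporter that takes up pyruvate and lactate, and it had the widest mean difference of all, 1.73, with 7.22 to 8.85 (median 8.42) on the dnPI3K arrays, 6.08 to 8.18 (median 7.60) on the Ntg arrays and 4.51 to 7.15 (median 6.82) on the caPI3K arrays. Its arrays also spread widely within each genotype, so the gap was only 0.07. Slc38a2 carries small neutral amino acids and Slc7a1 cationic ones, and their dnPI3K means were higher by 0.85 and 1.00. Both other probe sets of Slc38a2 read higher in dnPI3K as well, by 0.96 and 0.78. The efflux pump Abcg2 read 11.08 to 11.48 (median 11.28) on the dnPI3K arrays, 10.35 to 10.89 (median 10.71) on the Ntg arrays and 10.11 to 10.67 (median 10.43) on the caPI3K arrays, and its 8 Ntg arrays all lay below the dnPI3K arrays.

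Heart muscle, cytoskeleton and cell junctions held 13 genes. Nppa encodes atrial natriuretic peptide, a marker of wall stress. In sham hearts it read 16.03, 15.91, 15.76 and 15.80 in dnPI3K, 14.27, 13.54, 13.47 and 15.61 in Ntg and 14.07, 14.25, 14.41 and 13.32 in caPI3K. After MI it read 15.80, 15.69, 15.88 and 15.84, 15.45, 15.48, 15.57 and 15.51 and 15.40, 15.45, 15.10 and 15.40 in the same order. Every dnPI3K array was thus high with or without infarction, Ntg sham replicate 4 was as high as the infarcted Ntg hearts, and the 3 other Ntg sham arrays lay among the caPI3K sham arrays. Of 12 other measured fetal and wall-stress genes, 3 were higher and 2 lower in dnPI3K than in caPI3K, beside 5.6% and 7.48% of all genes. The higher ones were its sister peptide Nppb, at 0.49 (SE 0.08, adjusted p = 1.04e-04), the matricellular signal Ccn2, at 0.98 (SE 0.09, adjusted p = 2.85e-08), and smooth muscle actin Acta2, at 0.34 (SE 0.09, adjusted p = 0.016). Skeletal actin Acta1, at -0.49 (SE 0.12, adjusted p = 0.0066), and the sarcomeric LIM protein Fhl2, at -0.67 (SE 0.08, adjusted p = 7.63e-07), were lower.

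Among the contractile genes were the M-band protein Myom2, the cardiac myosin light chain kinase Mylk3, the tropomyosin Tpm2 and the muscle methyltransferase Smyd2. Their dnPI3K means were higher by 0.72, 0.54, 0.61 and 0.32. The brightest probe set of Myom2 is of a type that can bind related transcripts, and its other 2 bright probe sets gave 1.44 or more, again without overlap. Cell junctions were represented by Pkp2, a desmosomal plaque protein, and the catenin Ctnnb1, at 0.19 and 0.29. The epithelial and junctional genes Lad1 and Perp stood at 1.68 and 0.53, and Lad1 had one caPI3K sham array at 4.83 while its other caPI3K arrays lay above 7. The actin regulators Cobl and Dstn, the scaffold Ahnak and the microtubule protein Eml3 completed the set, at 1.37, 0.37, 0.36 and 0.42.

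Receptor ligands, G proteins, kinases and phosphatases held 15 genes and included 5 of the 10 widest gaps. Tac1 encodes the precursor of the neuropeptide substance P. It read 9.68, 9.75, 9.68 and 9.68 in dnPI3K sham, 9.04, 9.16, 8.29 and 8.54 in Ntg sham and 8.53, 8.38, 8.36 and 8.25 in caPI3K sham hearts. After MI it read 9.51, 9.76, 9.88 and 10.26, 8.95, 8.73, 9.05 and 9.19 and 8.34, 8.67, 8.61 and 8.79. The gap of 0.72 was the widest of the 91, and every Ntg array lay below every dnPI3K array. Gnb3, a G protein beta subunit, read 9.89, 9.89, 9.83 and 9.81 in dnPI3K sham hearts and 8.72, 9.53, 8.72 and 8.55 after MI. Its caPI3K arrays lay at 7.45 to 7.90 (median 7.75), and Ntg at 7.57 to 8.85 (median 8.72), where sham replicate 4 was the lowest. The phospholipase Plcd3, the GTPase-activating protein Arhgap9 and the scaffold Cnksr1 had gaps of 0.45, 0.44 and 0.36 and mean differences of 1.37, 1.35 and 1.03. The probe set of Arhgap9 is also of the type that can bind related transcripts.

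The 10 other signalling genes differed less. Camk2n1, an inhibitor of calcium/calmodulin kinase II, was higher by 0.69, and the neurotensin receptor Ntsr2 by 0.54. Prkar1a, the regulatory subunit that holds protein kinase A inactive, was higher by 0.33. The phosphatase genes Ppp1ca and Ppp1r12a and the kinase Rock1, which act on myosin phosphorylation, were higher by 0.24, 0.35 and 0.21. The kinases Dyrk2, Csnk1e and Cdkl1 and the scaffold Card10 were higher by 0.51, 0.41, 0.48 and 0.40.

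Matrix, secreted and surface proteins held 9 genes. Ntn1, the guidance cue netrin-1, had the widest gap of these, with 11.17 to 11.74 (median 11.54) on the dnPI3K arrays, 10.60 to 11.22 (median 10.95) on the Ntg arrays and 10.39 to 10.74 (median 10.55) on the caPI3K arrays. Fgl2, a fibrinogen-like protein with prothrombinase activity, read 11.07, 11.58, 11.27 and 11.34 in dnPI3K sham, 10.26, 10.59, 10.34 and 10.48 in Ntg sham and 10.25, 10.22, 10.27 and 10.03 in caPI3K sham hearts. After MI it read 11.65, 11.70, 11.56 and 11.43, 11.18, 10.92, 11.09 and 10.96 and 10.74, 10.63, 10.85 and 10.93. The mean lay higher after MI in all 3 genotypes and highest in dnPI3K, although 1 dnPI3K sham array lay within the infarcted Ntg arrays. Its dimmer probe set gave a larger mean difference, 1.09 against 0.96, with overlap. The protease inhibitor Timp3, the matrix protein Tinagl1 and the cadherin Cdh19 were higher by 0.54, 0.56 and 0.78. Cd47, a surface signal that inhibits phagocytosis, the NADPH oxidase subunit Cyba, the calcium-binding Sdf4 and Cmtm7 were higher by 0.30, 0.52, 0.39 and 0.60.

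Metabolic and mitochondrial proteins held 9 genes, led by Atpif1, the inhibitor that restrains ATP synthase from hydrolysing ATP. It read 13.81 to 14.30 (median 14.05) on the dnPI3K arrays, 13.19 to 13.87 (median 13.56) on the Ntg arrays and 12.89 to 13.48 (median 13.04) on the caPI3K arrays, a mean difference of 0.93. Its other probe sets were far dimmer, at means of 7.34 and 6.24. They overlapped between the genotypes and gave the opposite sign, at -0.07 and -0.39. The glycosyltransferases Gcnt1 and B4galt6 were higher by 1.51 and 0.72. Argininosuccinate lyase, Asl, the acyl-CoA genes Acad12 and Acbd4 and the phospholipase Plaat3 were higher by 0.68, 0.62, 0.77 and 0.36. Cryzl1 and the iron-sulfur assembly factor Bola2 were higher by 0.34 and 0.32. Vesicle and membrane proteins held 6 genes. These were the endocytic ATPase Ehd4 (0.71), the fusion proteins Vamp2 (0.39) and Vamp5 (0.52), and the membrane proteins Tmbim1 (0.60), Tmem120a (0.58) and Fam8a1 (0.32).

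Transcription, chromatin and RNA held 15 genes with mostly small differences, the median being 0.36. The largest belonged to Ahrr, the repressor of the aryl hydrocarbon receptor, with 8.03 to 9.18 (median 8.72) on the dnPI3K arrays, 6.74 to 8.65 (median 7.84) on the Ntg arrays and 6.78 to 7.67 (median 7.23) on the caPI3K arrays. Tent5a, which extends poly(A) tails, was higher by 0.99. Neat1 is the only one of the 91 that does not encode a protein, and this long noncoding RNA builds nuclear paraspeckles. It read 13.11 to 13.80 (median 13.42) on the dnPI3K arrays, 12.92 to 13.54 (median 13.17) on the Ntg arrays and 12.36 to 12.92 (median 12.73) on the caPI3K arrays, so Ntg hearts lay nearer dnPI3K, at 71.7% of the way. The others were Lmo2 (0.71), Zfp932 (0.63), Ezh1 (0.37), Gabpb2 (0.35), Ypel3 (0.36), Bptf (0.33), Rora (0.31), Sympk (0.41), Ggnbp2 (0.29), Atxn2l (0.25), Xpo1 (0.35) and Denr (0.23). They include the endothelial and blood regulator Lmo2, the histone methyltransferase Ezh1, the clock-linked nuclear receptor Rora and the nuclear exporter Xpo1. Cell division and DNA repair held 6 genes. They were Faap20 (0.80), Jpt1 (0.69), Smc4 (0.49), Cdk5rap3 (0.41), Cdkn2c (0.35) and Ccni (0.28), with the cyclin-dependent kinase inhibitor Cdkn2c and the condensin subunit Smc4 the best known. The 4 remaining genes of other or little described function were Tchhl1 (1.41), Tcp11l2 (0.70), Pdcl3 (0.34) and Fam76a (0.27).

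The limit of the choice separated genes by very little. The narrowest gaps inside it belonged to Atxn2l, Bola2 and Ngly1, each under 0.01. Just outside stood Fam162a, Akt1 and Ier5, whose lowest dnPI3K arrays were below their highest caPI3K arrays by less than 0.01. Further probe sets of the same genes, which the choice did not use, give a second reading of the same RNA and not a replicate. There were 82 of these with a mean of at least 7, from 46 of the genes. The dnPI3K mean was higher than the caPI3K mean for 77 of the 82, without overlap of arrays for 19. The median was 0.29 beside 0.35 for the brightest probe sets. For 54 of the 82 the Ntg mean lay between both lines. The 5 of the 82 with opposite sign belonged to Denr (-0.28), Klhdc2 (-0.21), Ahnak (-0.17), Atpif1 (-0.07) and Atxn2l (-0.04), and all 5 overlapped between the genotypes. That of Klhdc2 was bright, at a mean of 11.17. Of 36 dimmer probe sets, dnPI3K was higher for 25, without overlap for 1, and the Ntg mean lay between for 10. Those of opposite sign include Ahnak (-1.33), Cmtm7 (-0.57) and Tac1 (-0.53), the gene of widest gap. The opposite order, with the lowest caPI3K array above the highest dnPI3K array, was found for 196 genes of mean at least 7, or 1.82%.

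Levels of the 91 genes were slightly more alike across arrays than those of all genes of mean at least 7. The 91 lay on 18 chromosomes, with 12 on chromosome 11 (13.2%, beside 8.61% of autosomal genes of mean at least 7) and 10 on chromosome 4 (11%, beside 6.27%). Over the 8 Ntg arrays the median Pearson correlation between 2 of the 91 genes was 0.0814, beside 0.00344 for all genes of mean at least 7. After group means were removed from all 24 arrays it was 0.0744, beside 0.00278, with quartiles of -0.117 and 0.261 beside -0.177 and 0.183. The closest pair was Ahsg and Fam76a (r = 0.87), then Ypel3 and Fam8a1 (r = 0.79) and Myom2 and Ccni (r = 0.78). The arrays behind each pair share hearts and scaling, so these values are a description.

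Promoter sequence from RefSeq (GRCm38.p6) was at hand for 71 of the 91 genes, in 99 windows of the 250 bases before a transcription start. The FoxO core GTAAACA was found on either strand in 1.01% of these windows, beside 3.17% of all 32851 windows, and only for Ccni. The E-box CAGCTG, which reads alike on both strands, was found in 15.2% beside 13.0%, for 14 genes. The AP-1 site TGACTCA was found in 3.03% beside 4.46%, for Cnksr1, Fgl2 and Slc7a1. None of the motifs overlaps another in its letters. Windows are shown for the 3 genes that hold a motif and changed after infarction in the tests given next, with the motif in capitals, read 5′ to 3′ along the gene.
Ccni, FoxO core on the opposite strand, chr5:93206496-93206745, minus strand: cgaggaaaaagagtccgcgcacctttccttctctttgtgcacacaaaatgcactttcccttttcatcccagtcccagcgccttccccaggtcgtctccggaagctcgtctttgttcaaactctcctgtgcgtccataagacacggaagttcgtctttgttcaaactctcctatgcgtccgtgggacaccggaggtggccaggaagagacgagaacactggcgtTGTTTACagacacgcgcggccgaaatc
Nppa, E-box, chr4:148000472-148000721, plus strand: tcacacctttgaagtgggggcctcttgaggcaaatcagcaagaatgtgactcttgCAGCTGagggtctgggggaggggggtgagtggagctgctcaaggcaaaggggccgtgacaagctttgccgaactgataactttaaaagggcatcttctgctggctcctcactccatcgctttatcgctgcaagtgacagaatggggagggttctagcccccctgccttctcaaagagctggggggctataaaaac
Fgl2, AP-1 on the opposite strand, chr5:21372423-21372672, plus strand: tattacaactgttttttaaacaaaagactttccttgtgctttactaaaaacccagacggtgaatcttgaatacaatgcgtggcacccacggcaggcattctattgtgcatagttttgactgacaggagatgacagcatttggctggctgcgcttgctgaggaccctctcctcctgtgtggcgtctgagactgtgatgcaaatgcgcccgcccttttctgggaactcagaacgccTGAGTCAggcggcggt
The match begins 27 bases before the start in Ccni, 195 in Nppa and 16 in Fgl2. These are matches of letters and show no binding.

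The difference between MI and sham in Ntg hearts was independent of the choice, which used these arrays only through their overall mean. Its p-values were not fully so. The fit takes 1 spread from all 6 groups, and the choice limits that of the dnPI3K and caPI3K arrays. In limma with Benjamini-Hochberg adjustment over 14753 genes, after MI 2 of the 91 genes rose in Ntg hearts while none fell, beside 0.78% of all genes called in either direction. That background was not stable. With single arrays left out, 25 to 672 of all genes were called, beside 1 to 4 of the 91. Fgl2, whose 8 Ntg values are given above, rose by 0.62 (SE 0.10, adjusted p = 0.00324), and every MI array lay above every sham array. Nppa rose by 1.28 (SE 0.27, adjusted p = 0.0209), with Ntg sham replicate 4, at 15.61, above all 4 MI arrays. Without that array the difference in Nppa was 1.74, and it lost its call when any 1 of the other 7 Ntg arrays was left out, with adjusted p of 0.0507 to 0.119, or when the sham arrays with the numbers 415 to 418 in their titles were left out together (0.96, adjusted p = 0.674). The labels do not say what these numbers stand for. It was called in 24 of 33 alternative analyses, and Fgl2 in all 33. Irs1 read 11.25, 11.17, 11.14 and 10.74 in Ntg sham and 11.34, 11.48, 11.68 and 11.37 in Ntg MI hearts. These did not overlap, but the difference of 0.39 (SE 0.12, adjusted p = 0.118) missed the threshold. Over the 91 genes the median difference was 0.027, beside -0.0047 over all genes, and 51 differences were above 0, or 56% beside 49.2%.

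Atrial markers and myeloid markers varied beside these changes. The 11 atrial markers other than Nppa gave a summed signal of 12783 to 46722 in Ntg sham and 32744 to 41492 in Ntg MI hearts, and 1 of the 11, Sln, rose (limma, adjusted p = 0.0385). In caPI3K hearts the same sum was 27957 to 40636 in sham and 27697 to 37004 after MI, with none of the 11 called. Myh7, also on the fetal and wall-stress list, was the brightest and weighs most in the sum. Its mean was 13.99 in Ntg sham and 14.50 in Ntg MI hearts. The next brightest in Ntg MI hearts, Myl4, Myl7 and Sln, changed after MI by 1.18, 1.56 and 2.18 in Ntg hearts. In caPI3K hearts they changed by -0.58, -0.94 and -0.93. The 13 macrophage and myeloid markers gave 21614 to 33179 in Ntg sham and 26697 to 43568 in Ntg MI hearts, and 21774 to 28185 and 30124 to 39609 in caPI3K hearts, with none called in either genotype. No marker of either list had a mean of 0, and their part in the changes of Nppa and Fgl2 was not tested.

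In dnPI3K hearts, 4 of the 91 genes fell after MI and none rose, beside 9.42% of all genes called in either direction and 5.19% called lower. The choice used the dnPI3K and caPI3K arrays pooled over both operations and not the contrast itself. It limits the spread within each genotype, which enters the p-values. It also limits how far a dnPI3K level could fall or a caPI3K level rise. The counts and calls of the 91 in dnPI3K hearts are therefore a description. Tcp11l2, of little described function, read 12.74, 12.72, 12.59 and 12.50 in dnPI3K sham and 11.93, 12.11, 12.22 and 11.91 in dnPI3K MI hearts. Its MI arrays all lay below its sham arrays, and it changed by -0.59 (SE 0.13, adjusted p = 0.00338). Gnb3, listed above, changed by -0.98 (SE 0.22, adjusted p = 0.0053), with 3 MI arrays near the Ntg level and replicate 2 at 9.53, still below all sham arrays. Ccni, an atypical cyclin, read 14.07, 13.97, 13.77 and 13.96 in sham and 13.69, 13.71, 13.68 and 13.64 in MI hearts and changed by -0.27 (SE 0.08, adjusted p = 0.0234). Vamp5, a muscle vesicle protein, read 11.65, 11.50, 11.91 and 11.55 and 11.36, 11.47, 11.28 and 11.30 and changed by -0.30 (SE 0.09, adjusted p = 0.0304). No array of either group overlapped for Ccni or Vamp5. Without dnPI3K sham replicate 1, or without dnPI3K MI replicate 4, only Tcp11l2 and Gnb3 kept their calls. Without the sham arrays titled 415 to 418, Gnb3 (-0.94, adjusted p = 0.0517) and Ccni (-0.19, adjusted p = 0.147) missed the threshold. Over 33 alternative analyses Tcp11l2 was called in 33, Gnb3 in 32, and Ccni and Vamp5 in 26 each.

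In caPI3K hearts, 4 of the 91 genes rose after MI and none fell, beside 1.11% of all genes called in either direction and 0.854% called higher. The choice limits these arrays in the same way, so these counts and calls are a description too. Fgl2 and Nppa, with arrays as listed above, rose by 0.59 (SE 0.10, adjusted p = 0.00221) and 1.32 (SE 0.27, adjusted p = 0.0119), and neither overlapped between sham and MI. Camk2n1 read 11.00, 10.74, 11.13 and 10.62 in caPI3K sham and 11.25, 11.29, 11.32 and 11.35 in caPI3K MI hearts and rose by 0.43 (SE 0.10, adjusted p = 0.0311). Dstn, an actin-severing protein, read 12.61, 12.58, 12.77 and 12.58 and 12.96, 12.96, 12.86 and 12.78 and rose by 0.26 (SE 0.06, adjusted p = 0.045). Every infarcted heart was above every sham heart for both genes, though by a narrow margin for Dstn, between 12.77 and 12.78. Without caPI3K sham replicates 1, 2 and 3, which carry the Y-linked signal, 1 sham array was left, which the fit takes to vary like the other groups. The 4 differences were then larger but missed the threshold, at 0.75 for Fgl2 (adjusted p = 0.0939), 2.02 for Nppa (adjusted p = 0.0773), 0.68 for Camk2n1 (adjusted p = 0.0773) and 0.31 for Dstn (adjusted p = 0.462). Without caPI3K sham replicate 4 only Fgl2 kept its call, and without caPI3K sham replicate 2 or MI replicate 1, 2 or 3 only Fgl2 and Nppa did. With a term for title numbers under 1000, Camk2n1 (adjusted p = 0.0778) and Dstn (adjusted p = 0.249) missed the threshold. Over the 33 alternatives Fgl2 was called in 32, Nppa in 31, Camk2n1 in 24 and Dstn in 19.

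**Figure D3:**
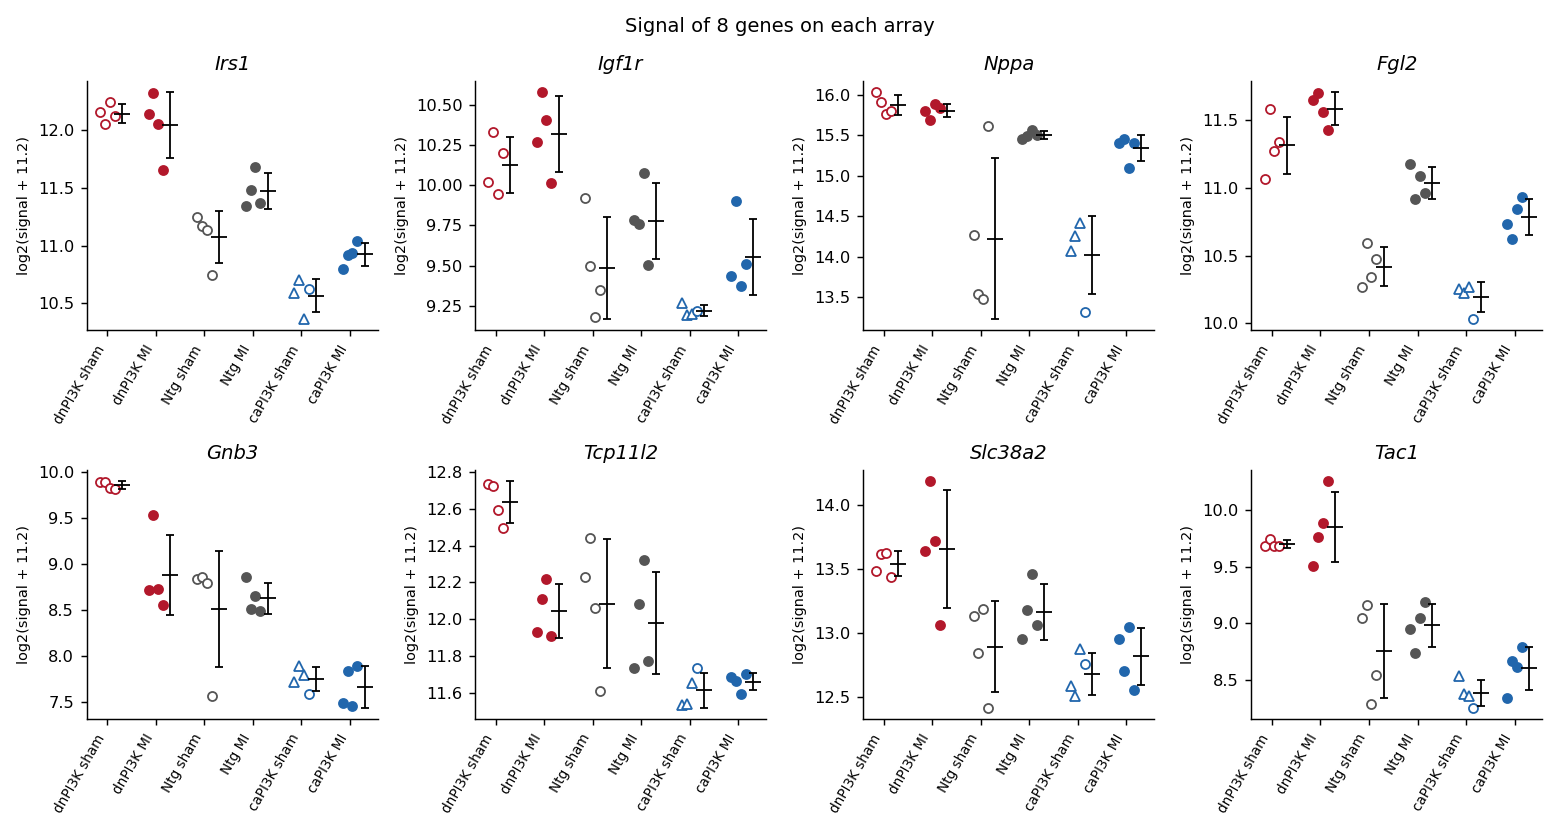
Level of 8 of the 91 genes on every array, as log2(signal + 11.2) (vertical axis), by genotype and operation (horizontal axis), with open symbols for sham, filled symbols for MI, triangles for the 3 arrays with Y-linked signal, and the mean with SD of 4 arrays to the right of each group. Vertical axes differ between panels and do not start at 0; Nppa and Fgl2 lie higher after MI in Ntg and caPI3K hearts, and Gnb3 and Tcp11l2 lower after MI in dnPI3K hearts.

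The study also compared the effects of MI between genotypes. None of the 91 genes, and none of all 14753 genes (0%), differed in its MI effect between caPI3K and dnPI3K, between dnPI3K and Ntg or between caPI3K and Ntg in limma with Benjamini-Hochberg adjustment. At an unadjusted p below 0.05 there were 16, 10 and 10 of the 91, beside 10.2%, 7.61% and 5.52% of all genes. The smallest p of the 91 for caPI3K against dnPI3K belonged to Atpif1, whose MI effect was higher in caPI3K by 0.55 (SE 0.15, adjusted p = 0.177), then Nppa, by 1.39 (SE 0.39, adjusted p = 0.181), and Tcp11l2, by 0.64 (SE 0.18, adjusted p = 0.181). Nppa and Tcp11l2 passed when Ntg sham replicate 4 was left out (adjusted p = 0.00725 and 0.048) and when only the dnPI3K and caPI3K arrays were fitted (adjusted p = 0.0137 and 0.0151). Without Ntg sham replicate 4, Nppa also passed for dnPI3K against Ntg, at a difference of -1.81 (adjusted p = 8.91e-04). The dnPI3K and caPI3K arrays in these contrasts also chose the 91 genes, and their limited spread enters the p-values. The counts and passes of the 91 here are therefore a description.

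The distance between the genotypes was larger in sham than in MI hearts for 77 of the 91 genes, or 84.6%, beside 53.7% of all genes tested and 147 of the 196 genes of opposite order, or 75%. The dnPI3K and caPI3K arrays that give these distances also chose both sets of genes, so the counts are a description with no test and say nothing particular to the 91. The dnPI3K mean exceeded the caPI3K mean by a median of 0.61 in sham and 0.44 in MI hearts, and for the opposite order the medians were -0.63 and -0.53. In dnPI3K hearts the median difference between MI and sham over the 91 was -0.063, beside 0.011 over all genes, and in caPI3K hearts it was 0.089 beside -0.0024. Over 33 alternative analyses the count of 77 ranged from 67 to 79.

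**Figure D4:**
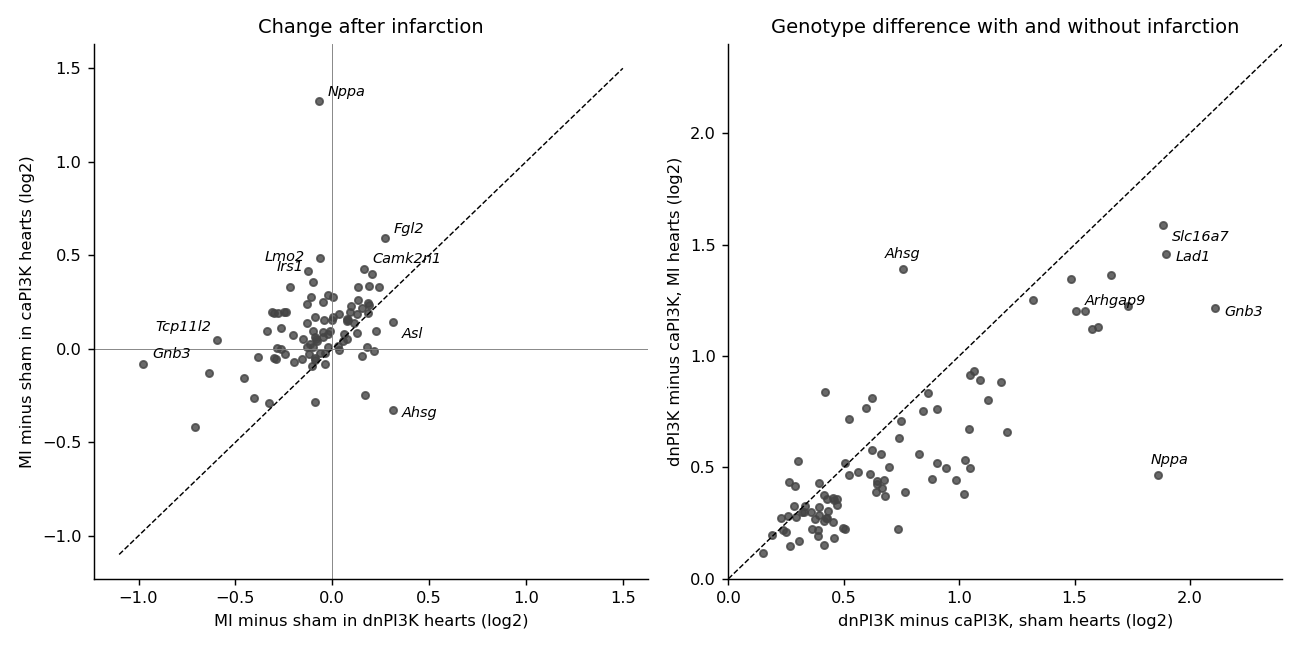
Left, the difference between MI and sham in dnPI3K hearts (horizontal axis) and in caPI3K hearts (vertical axis) for the 91 genes, in log2 units. Right, the dnPI3K minus caPI3K distance in sham (horizontal axis) and in MI hearts (vertical axis); dashed lines mark equal values, and 77 of the 91 genes lie above the line on the left and below it on the right, Nppa furthest.

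For Ahsg the distance was wider after MI, from 0.75 in sham to 1.39 in MI hearts, but caPI3K sham replicate 4 read 5.87 against 6.84 to 7.44 on the other caPI3K sham arrays. Its MI effect in caPI3K minus that in dnPI3K ran from -0.97 to 0.37 over the alternatives, so its direction is not settled. Nppa narrowed most of the 91, from 1.86 to 0.47, followed by Gnb3, from 2.11 to 1.21. The difference in MI effect ran from 1.16 to 2.09 for Nppa and from 0.79 to 1.11 for Gnb3 over the alternatives.

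Markers of other cells also differed between the genotypes, in both directions, where 5.6% of all genes were called higher and 7.48% lower in dnPI3K. Between dnPI3K and caPI3K hearts, 2 of 13 fibroblast markers were higher in limma, Tcf21 at 0.52 (SE 0.08, adjusted p = 6.30e-05) and Gsn at 0.29 (SE 0.05, adjusted p = 2.33e-04), and none lower. Of 11 endothelial markers only Vwf was called, at 0.57 (SE 0.11, adjusted p = 6.08e-04). Of 10 smooth muscle and pericyte markers Acta2, Tagln and Cspg4 were higher and Smtn was lower, and of 7 epicardial markers only Krt18 was higher, at 1.23 (SE 0.21, adjusted p = 1.38e-04). None of 13 macrophage and 6 adipocyte markers was called, and of 14 cardiomyocyte markers only Ryr2 was, as lower. Of 7 skeletal muscle markers Acta1 and the myosin light chain Myl1, at -2.48 (SE 0.14, adjusted p = 3.81e-12), were lower in dnPI3K and none was higher. Of 7 Schwann and neuronal markers only Dbh, which makes noradrenaline, was called, as lower, at -0.68 (SE 0.11, adjusted p = 7.68e-05). Of the 11 atrial markers other than Nppa, Myl7 (-0.87 (SE 0.29, adjusted p = 0.0456)) and Kcnj3 (-0.78 (SE 0.14, adjusted p = 2.15e-04)) were lower and Dkk3 (0.71 (SE 0.17, adjusted p = 0.00402)) was higher. The fibroblast sum was 129861 to 197408 on the dnPI3K, 106161 to 168471 on the Ntg and 109070 to 164651 on the caPI3K arrays. The smooth muscle sum was 45821 to 53887, 39575 to 51723 and 41581 to 51119, and the epicardial sum 865 to 2424, 976 to 1379 and 945 to 1295. The ranges of these 3 sums overlapped between genotypes. The skeletal muscle sum did not overlap between dnPI3K, at 56428 to 74366, and caPI3K, at 90681 to 111289, with Ntg at 66386 to 114258. Its bright members were Ckm, Acta1 and Myl1, with dnPI3K medians of 14.97, 14.68 and 12.30. Ckm is also on the cardiomyocyte list and Acta1 on the fetal and wall-stress list. The other markers, Atp2a1, Pvalb, Myh2 and Tnni2, had dnPI3K medians of 6.99, 6.81, 6.55 and 5.37, and none was called. The sum is therefore no measure of skeletal muscle content. No marker had a mean of 0, and the part of such cells in the levels of the 91 genes was not tested.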

How the data were processed

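Signal intensities were deposited, made with MAS5 per the submitters' processing notes, 1 value for each of 45101 probe sets on each of 24 arrays. Neither its version nor its target level was given in the sources used here. After trimming 2% at each end, every array has a mean of 500.003 to 500.004, so no further normalization was applied. Control probe sets (64) were left out, and 34945 probe sets name 1 gene in the platform annotation. A gene is read from the probe set with the highest mean log2(signal + 11.2), the pseudocount being the median signal divided by 10, which compresses differences of dim genes.

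The members and the gene lists were chosen with earlier results of these data known, and the roles by which genes are ordered were assigned after their values were seen. For tests, probe sets above the 40th percentile of their own array on at least 4 arrays gave 14753 genes, which include all 91 members. A linear model with 6 group means was fitted in limma 3.58.1 (R 4.3.3) with an intensity trend and 18 residual degrees of freedom, and p-values were adjusted over all 14753 genes by the Benjamini-Hochberg method, with a call at adjusted p below 0.05. Values are given for the 15 members of widest gap, those called after MI, those on a list, and the 3 on each side of the limit of the choice. Others are given by their difference, and any detail of them was chosen after seeing the values.

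On simulated data with 14753 genes the code called 34.7%, 60% and 84.7% of the genes given a change of 0.5, 1 or 2 log2 units after MI in Ntg hearts. For caPI3K against dnPI3K MI effects it called 14%, 45.7% and 79.3%. The simulated noise was normal and independent, with the same spread of a gene in every group and no genotype differences. These shares test the code and do not give the power on the real arrays. Promoters and gene identifiers came from RefSeq tables for GRCm38.p6. The number of arrays limits precision. Alternatives covered the pseudocount, quantile normalization, the filter, the choice of probe set, the numbers in the sample titles, the arrays with Y-linked signal, the arrays fitted and each array left out. Tables and figures were made with Python 3.11.15.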

Additional observations from a re-analysis of the deposited data

Results flagged for a closer look

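In 14 of 168 groups of 4 arrays, taken over 28 genes, 1 array stood apart from the 3 others by Dixon's criterion, where chance marks about 1 in 20. The criterion is relative to the range of the 4 arrays. It therefore also flags small distances where the 3 others lie close together, as for Tac1 and Ngly1. All values are log2(signal + 11.2). Ntg sham replicate 4 stood low for Gnb3, at 7.57 against 8.79 to 8.85, and for Gcnt1, at 7.36 against 8.32 to 8.46. Other Ntg sham arrays stood apart for Plcd3 (replicate 1, at 6.89 against 7.32 to 7.41), Atpif1 (replicate 3, at 13.19 against 13.55 to 13.58) and Gabarapl1 (replicate 1, at 12.43 against 12.23 to 12.26). Among infarcted Ntg hearts, Cnksr1 read 9.32 on replicate 2 against 8.86 to 8.94, and Fbxo30 read 9.53 on replicate 1 against 9.98 to 10.02. In dnPI3K sham hearts Tac1 read 9.75 on replicate 2 with the others at 9.68, and Jpt1 read 12.00 on replicate 3 against 12.18 to 12.19. Cnksr1 was again high on dnPI3K MI replicate 2, at 10.15 against 9.40 to 9.51. In caPI3K sham hearts Lad1 read 4.83 on replicate 2 against 7.62 to 7.92, and Dstn 12.77 on replicate 3 against 12.58 to 12.61. In infarcted caPI3K hearts Nppa read 15.10 on replicate 3 against 15.40 to 15.45, and Ngly1 read 10.93 on replicate 4 against 10.84 to 10.85.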

How the results depend on the processing

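Of the 10 calls after MI, 5 held in 31 to 33 of 33 alternatives and 5 in 19 to 26. Of the 91 genes, 2 were called after MI in Ntg hearts, and 1 when only the Ntg arrays were fitted or when the sham arrays titled 415 to 418 were left out. Leaving out single arrays gave 1 to 4, the 4 without Ntg sham replicate 4, while the count over all genes ran from 25 to 672. After MI in dnPI3K hearts the count of 4 became 2 to 5 when single arrays were left out. Over all genes, single arrays left out gave 844 to 1591 calls after MI in dnPI3K hearts and 70 to 273 in caPI3K hearts. After MI in caPI3K hearts the count of 4 became 2 with a term for title numbers under 1000, 0 without the caPI3K sham arrays with Y-linked signal (1 sham array left, taken to vary like other groups, with each of the 4 differences larger), and 1 to 4 without single arrays. For MI effects between caPI3K and dnPI3K the count of 0 became 2 when only those arrays, whose spread the choice limits, were fitted. It was 0 to 2 without single arrays. For dnPI3K against Ntg it was 0 to 1, and for caPI3K against Ntg 0 in all of them. No named gene changed direction together with a call. For MI in Ntg hearts, 915 of 924 named-gene values kept direction and side of the threshold and 9 lost a call; for MI in caPI3K hearts 26 lost and 2 gained a call, and in dnPI3K hearts 15 lost and 5 gained one. The choice gave 91 genes with a pseudocount of 1, 92 with 50, 107 after quantile normalization (83 shared with the 91), 68 with the mean of all probe sets (49 shared), 120 without the arrays with Y-linked signal (89 shared), and 90 to 126 without single arrays. The causes were not tested. No paired analysis was possible because the titles carry a number of unstated meaning for each sample and no number is shared between groups.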
